A study of Mus musculus with 24 samples.

Results

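The 83 genes described here encode subunits of the mitochondrial oxidative phosphorylation machinery and cytochrome c, the small protein that carries electrons between its complexes. They were taken by symbol from the annotation of the array's probe sets: the Nduf genes of the a, b, c, s and v series, Sdha to Sdhd, the Uqcr genes, the Cox4 to Cox8 genes, the Atp5 genes, Cyc1 and Cycs. Of 90 symbols that matched, 7 (Ndufa11, Ndufa11b, Ndufb4b, Ndufb4c, Ndufs5-ps, Ndufs6 and Ndufs6b) lay only on probe sets shared with other symbols and were not read separately. The remaining 83 have 169 probe sets; each gene was read on whichever of its probe sets was brightest on average, as were all 18193 genes of the series. They comprised 33 genes of complex I, 4 of complex II, 9 of complex III, cytochrome c itself, 19 of complex IV and 17 of complex V. Ndufa4 and Ndufa4l2 were placed with complex IV.

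RNA was measured on 24 Affymetrix mouse arrays, in 8 groups of 3, to follow what the transcription factors MyoD and NeuroD2 do in cells of different origin. MyoD starts the skeletal muscle programme and NeuroD2 acts in neurons. P19 cells are a pluripotent line from a mouse embryonal carcinoma. The MEFs are embryonic fibroblasts of Myod-/-/Myf5-/- mice, so by their label all 4 fibroblast groups, controls included, lack both myogenic genes. Batch 1 held untransduced P19 cells, P19 cells with a MyoD lentivirus, untransduced MEFs and MEFs with the MyoD lentivirus. Batch 2 held untransduced MEFs and MEFs with a NeuroD2 lentivirus, and batch 3 untransduced P19 cells and P19 cells with the NeuroD2 lentivirus. The labels give polybrene at 8 µg/ml and fresh medium 24 hours after infection for all 4 transduced groups, and neither for the controls. A factor thus cannot be told apart from the infection procedure in any comparison with controls. P19 cells with either factor were collected 72 hours after infection. MEFs with MyoD were moved at 48 hours into differentiation medium with 1% horse serum, insulin and transferrin, and were collected 36 to 40 hours after that. The labels give this switch of medium for the MyoD MEFs alone, so the factor and the medium cannot be told apart in that comparison. A promoter driving the viruses, animal ages and an infection control without a factor are not given in the labels, nor is it stated that the 3 samples of a group were separate cultures, so the spread behind each p-value may be technical. Another label field describes the MyoD samples as neuronally differentiated, and groups were taken from the sample titles. For the MEFs labelled NeuroD2 no collection time is given in the sources used here.

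Oxidative phosphorylation makes most of the ATP of resting cells. Complex I and complex II take electrons from NADH and succinate, complex III passes them to cytochrome c, and complex IV hands them to oxygen. The protons pumped on the way drive complex V, the ATP synthase. Nuclear genes encode all subunits of complex II and most of the other complexes, and several small subunits of complex IV come in a ubiquitous form and a form restricted to heart and skeletal muscle, testis or lung. Mature skeletal muscle is rich in mitochondria.

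One array, P19 control replicate 2 of batch 1, diverged from the rest and is called the divergent array. Its quartiles were 4.79 and 7.63 on the log2 scale against 4.47 to 4.58 and 8.23 to 8.39 elsewhere, and its mean correlation within its group was 0.919. The P19 controls beside it reached 0.957 and 0.96, and the remaining 21 arrays at least 0.984 in their groups. It was kept, and comparisons that use it are given with and without it. Myod1 rose by 5.55 in MEFs with MyoD and by 3.94 in P19 cells with MyoD on the probe set used. Another probe set of the gene read 0.06 and 0.10 for the same contrasts and did not pass. On the probe set used, the untransduced MEFs of batch 1, labelled as lacking Myod, read 7.21, 7.18 and 7.14, and the P19 controls 5.95, 5.40 and 5.82 (1.46 higher in MEFs, adjusted p = 4.1e-09). The MEF controls of batch 2 read 7.16, 7.21 and 7.29, so all untransduced MEFs lay just above 7.03, the median signal of the genes over the arrays, below which a gene is called dim here; where this probe set lies relative to the deletion was not tested. Neurod2 was called on 1 of 3 probe sets in P19 cells with NeuroD2 (1.70, limma adjusted p = 1.85e-06), whereas in MEFs labelled NeuroD2 its 3 probe sets differed by -0.06, 0.21 and -0.12 (adjusted p = 0.943, 0.679 and 0.791). Fibroblast markers were bright in all MEF groups (7 of 7 above 7.03), and 6 of 7 pluripotency markers were bright in all P19 groups. The lists did not separate the cell types fully. From 1 to 4 of the 7 fibroblast markers were also bright in the P19 groups, with Fbln1 at means of 9.91 to 10.81. In every MEF group 1 pluripotency marker, Utf1, lay above 7.03 (means 7.04 to 7.70). All 4 brown adipocyte and all 4 blood markers were dim in every group, as were the 4 cardiomyocyte markers except 1 in the P19 controls of batch 1. In bulk RNA, fewer cells of a type and less RNA per cell cannot be told apart.

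The level of the gene set as a whole was close to constant across groups, except in MEFs with MyoD and on the divergent array. The median signal over the 83 genes was 12.25, 12.27 and 12.22 (log2) on the 3 arrays of MEFs with MyoD, and 11.68, 11.70 and 11.64 on their controls. P19 controls of batch 1 read 11.69, 11.13 and 11.66, the lowest value being that of the divergent array. The remaining 15 arrays lay between 11.59 and 11.83. The MyoD MEF arrays therefore lay above every other array, with no overlap. Probe sets differ in brightness, so these medians follow the set between samples and do not compare one gene with another. The probe sets used for Ndufb4 (highest group mean 4.65), Cox7b2 (3.98) and Cox4i2 (5.49) were near background in every group, and that for Cox7a1 (6.70) was dim in every group.

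MyoD in MEFs came with a rise of most subunit genes. Of the 83 genes, 58 rose, 0 fell and 25 did not pass (limma, Benjamini-Hochberg over all genes, adjusted p under 0.05, which is what "rose" and "fell" refer to throughout). Over all genes, 10.8% were called higher and 14.5% lower. The median difference was 0.55 on the log2 scale, against 0.00 over all 18193 genes. The groups of 3 did not overlap for 74 of the 83, all in the direction of higher signal with MyoD, where 57.1% of all genes did not overlap in either direction. Without the divergent array, which is no member of either group but adds to the shared estimate of spread, 71 rose, including the 58, against 18.1% of all genes. In the same MEFs the summed log2 signal of 7 skeletal muscle markers lay at 94.9 to 95.4, against 36.1 to 36.9 in controls, and that of 7 fibroblast markers at 77.6 to 78.7 against 91.3 to 92.2; their part in the rise was not tested.

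**Figure D1:**
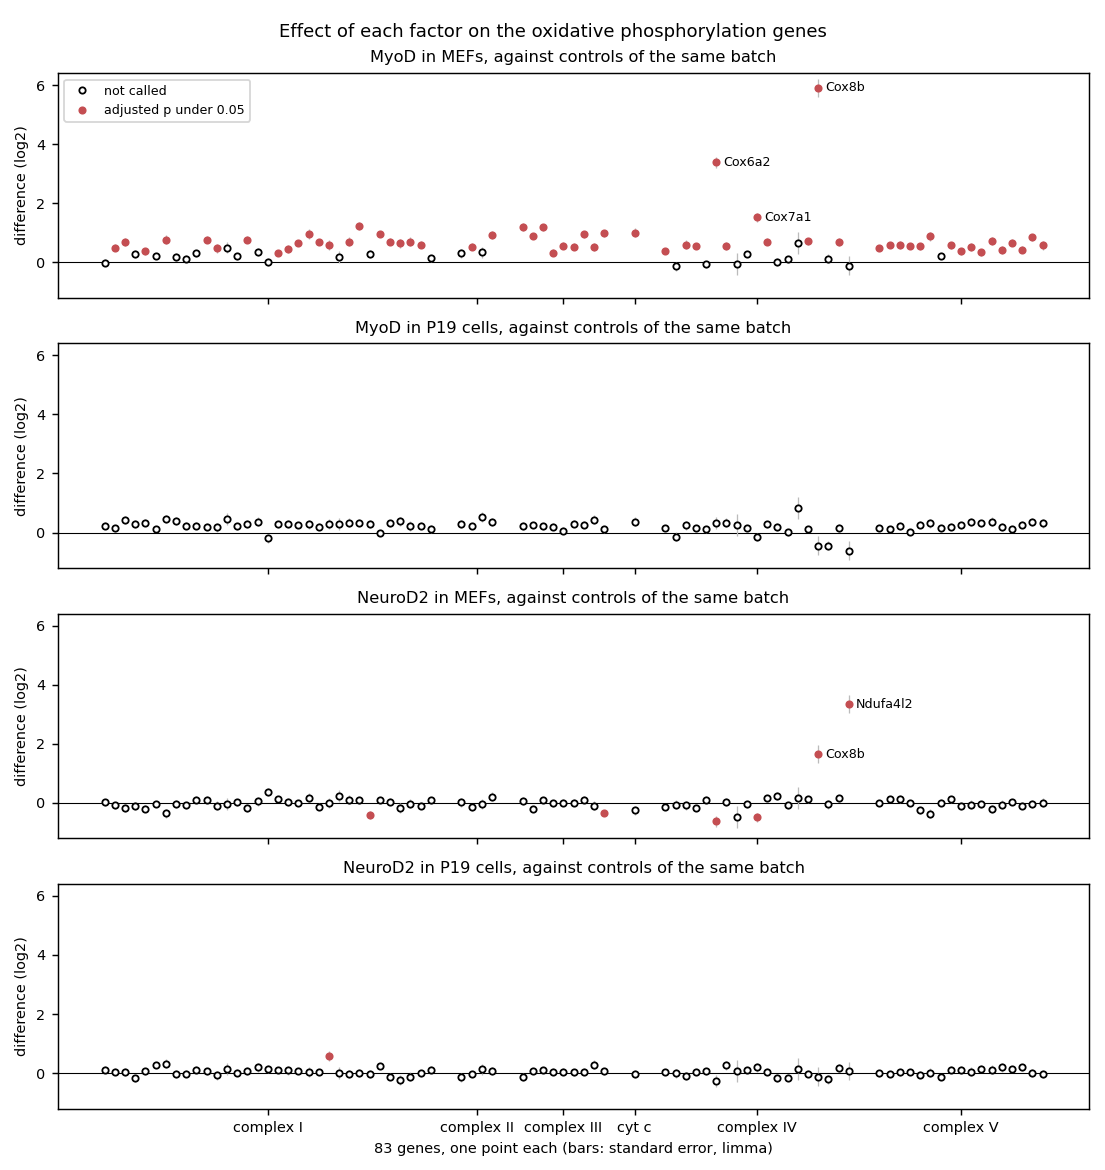
Difference from the untransduced controls of the same batch (vertical axes, log2) for the 83 genes, ordered by complex, for each factor and cell type; bars are limma standard errors, and filled points passed at an adjusted p under 0.05. In the MyoD MEF panel most points are filled and above 0, with Cox8b at 5.91 and Cox6a2 at 3.38, and Ndufa4l2 stands alone at 3.34 in the NeuroD2 MEF panel.

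Complex I, the entry point for NADH, rose in part. Of its 33 genes, 20 rose, with a median of 0.50 over all 33. The 6 measured genes of the catalytic core, which binds flavin and iron-sulfur clusters (Ndufs1, Ndufs3, Ndufs7, Ndufs8, Ndufv1 and Ndufv2), all rose, by 0.59 to 1.23. Of the 27 accessory genes, 14 rose, with a median of 0.37 and a range of -0.02 to 0.96, and 22 rose without the divergent array. Next to the core, the largest rises were those of the accessory genes Ndufs5 (0.96) and Ndufb8 (0.96), and the genes nearest 0 were Ndufa1 (-0.02), Ndufb4 (-0.00) and Ndufa7 (0.12). Division by role was made after the values were known, and whether core and accessory genes differed was not tested. Ndufs3, a core subunit needed early in assembly, read 12.16, 12.24 and 12.17 in MEFs with MyoD and 10.92, 11.00 and 10.95 in controls. All 3 MyoD arrays lay above all controls, and the difference was 1.23 ± 0.13 (log2, SE; 2.35-fold, limma adjusted p = 2.33e-07). The other 6 groups had means of 10.98 to 11.36.

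Complex II has 4 subunits, and it also serves the tricarboxylic acid cycle. Sdhb, the iron-sulfur subunit, rose from 11.15, 11.17 and 11.16 to 11.68, 11.69 and 11.68 (0.53 ± 0.11, adjusted p = 0.00122). Sdhd, a membrane anchor, rose from 10.87, 10.91 and 10.93 to 11.80, 11.87 and 11.83 (0.93 ± 0.14, adjusted p = 3.52e-05). Sdha, the flavoprotein that oxidises succinate, and Sdhc, the other anchor, were higher on all 3 MyoD arrays too, but differences of 0.30 and 0.34 did not pass (adjusted p = 0.159 and 0.215). Without the divergent array both passed (adjusted p = 0.000694 and 0.00164). The direction was the same for all 4 genes.

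All 9 genes of complex III rose, by 0.33 to 1.20 with a median of 0.88. Cyc1, the cytochrome c1 that reduces cytochrome c, read 11.54, 11.63 and 11.59 in controls and 12.79, 12.82 and 12.76 with MyoD (1.20 ± 0.14, 2.30-fold, adjusted p = 7.26e-07). Uqcr11, a small accessory subunit, went from 11.25, 11.33 and 11.25 to 12.48, 12.47 and 12.42 (1.18 ± 0.11, adjusted p = 2.12e-08). Both genes separated the groups by more than 1 log2 unit, far beyond a replicate spread with SDs of 0.029 to 0.0478. The 4 catalytic and core genes (Cyc1, Uqcrfs1, Uqcrc1 and Uqcrc2) rose by 0.53 to 1.20 and the 5 small ones by 0.33 to 1.18. Cycs, which encodes cytochrome c, read 11.79, 11.90 and 11.92 in controls and 12.74, 12.93 and 12.95 with MyoD (1.00 ± 0.15, 2.00-fold, adjusted p = 2.42e-05). Its 3 other probe sets also rose, by 1.18, 1.37 and 0.55.

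**Figure D2:**
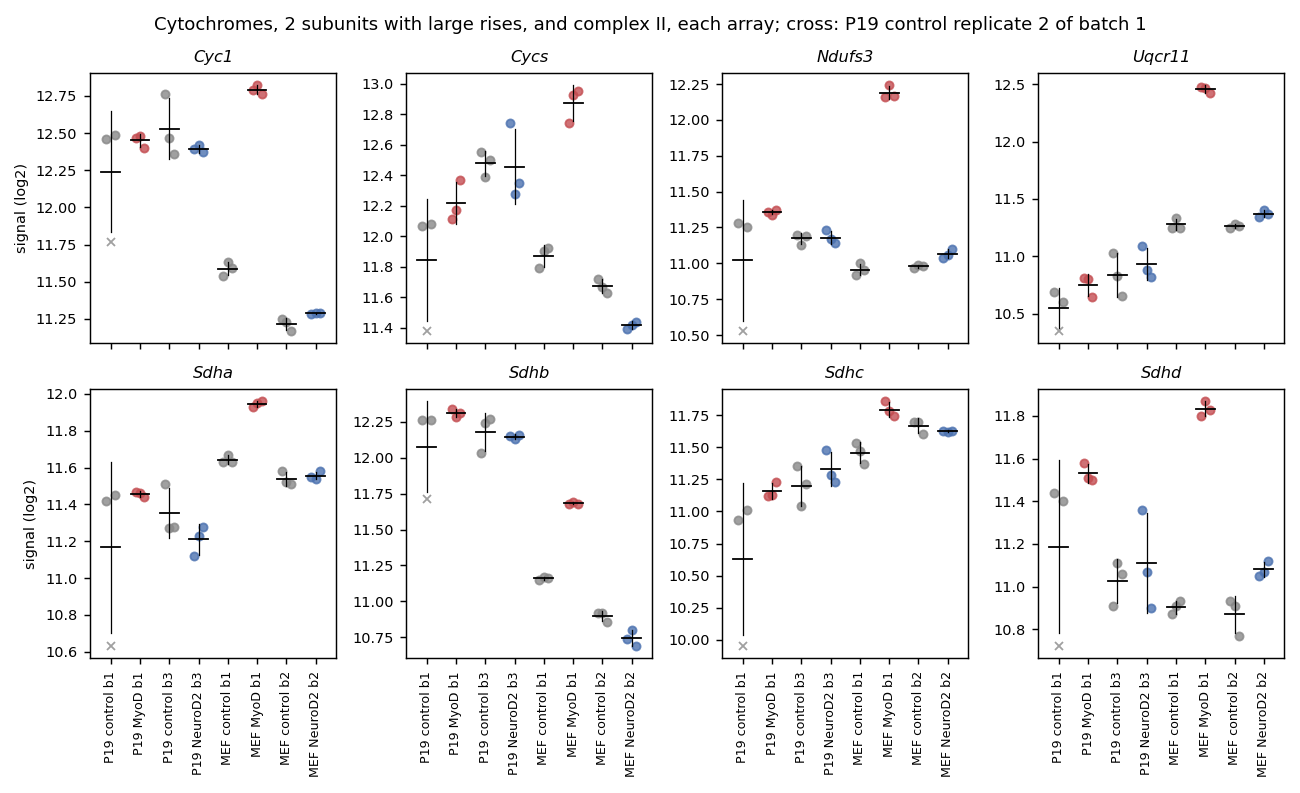
Log2 signal (vertical axes, scale set per gene) on each of the 24 arrays for Cyc1, Cycs, Ndufs3, Uqcr11 and the 4 complex II genes in the 8 groups (b1 to b3, batch 1 to 3); horizontal lines are group means, vertical lines 1 SD, n = 3, and the cross is P19 control replicate 2 of batch 1. MEFs with MyoD are the highest group for Cyc1 (mean 12.79), Ndufs3 (12.19) and Uqcr11 (12.45), while Sdhb is higher in every P19 group than in any MEF group.

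Complex IV, cytochrome c oxidase, held both the largest rises and several genes near 0. Of 19 genes, 10 rose, by 0.37 to 5.91. The 2 largest were Cox8b and Cox6a2, the isoforms of heart and skeletal muscle. Cox8b read 5.40, 5.56 and 5.52 in controls and 11.37, 11.48 and 11.36 with MyoD (5.91 ± 0.31, 60.0-fold, adjusted p = 2.42e-12). Its control signal was dim, so the fold rests on a level near background. The means were 5.49 ± 0.0809 and 11.4 ± 0.0672 (SD, n = 3). Cox6a2 read 8.46, 8.51 and 8.65 in controls and 11.92, 11.99 and 11.85 with MyoD (3.38 ± 0.19, 10.4-fold, adjusted p = 9.67e-12), and its other probe set rose by 3.65. The third muscle isoform, Cox7a1, rose from 5.45, 4.98 and 5.13 to 6.65, 6.68 and 6.79 (1.52 ± 0.15, adjusted p = 4.92e-08); both levels were dim, so no fold is given. No MyoD array overlapped the controls for any of these 3 genes.

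The ubiquitous partners of these isoforms did not behave alike. Cox8a and Cox7a2 rose, by 0.71 and 0.70 (adjusted p = 4.77e-05 and 5.05e-05). Cox6a1, the partner of Cox6a2, read 13.52, 13.51 and 13.51 in controls and 13.51, 13.41 and 13.40 with MyoD, a difference of -0.07 (adjusted p = 0.796), so its groups overlapped. The other ubiquitous genes with a counterpart among the 83 rose: Cox4i1 by 0.37, Cox6b1 by 0.56 and Ndufa4 by 0.68. The remaining tissue isoforms did not pass: Cox4i2 of lung (-0.14) and Cox6b2, Cox7b2 and Cox8c of testis (-0.06, 0.11 and 0.12). Nor did Ndufa4l2 (-0.11), a relative of Ndufa4 that was counted with them although no tissue is named for it here. All of these but Cox8c were dim in both groups, where small changes could be missed. Of the 8 genes counted as tissue isoforms, Ndufa4l2 included, the 3 of muscle were thus the ones called. The 75 other genes, with 55 called, had a median of 0.56, so these 8 did not set the median. Cox7a2l, which links complexes III and IV, was at 0.00. Cox6c and Cox7c, small subunits without a tissue form among the 83, were higher on all 3 MyoD arrays but did not pass (0.28 and 0.66, limma adjusted p = 0.0656 and 0.25). Both passed without the divergent array (adjusted p = 0.00144 and 0.0215). The Cox7c probe set used was dim in controls and with MyoD (means 5.91 and 6.57), and its other probe set averaged 4.89 over all arrays.

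**Figure D3:**
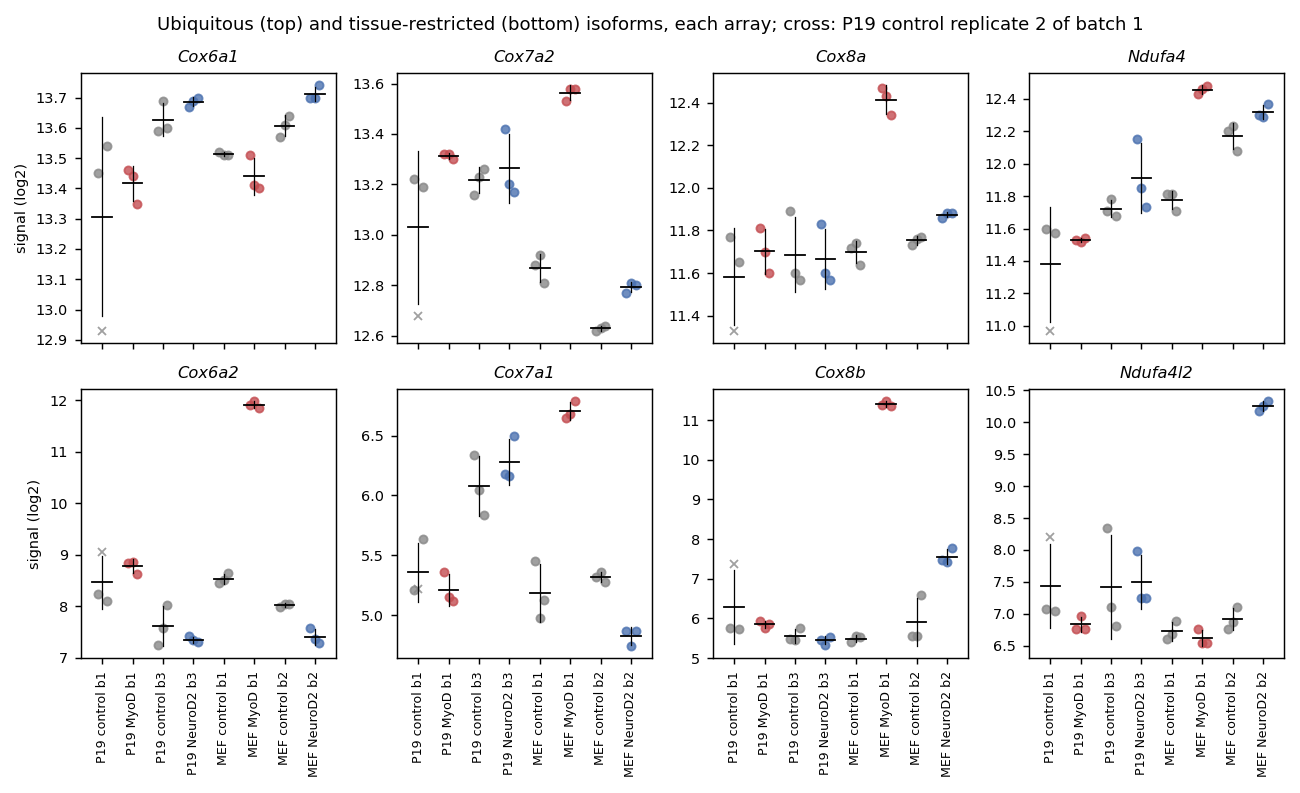
Log2 signal (vertical axes, scale set per gene) of 4 ubiquitous subunit genes (top) and their relatives (bottom) on each array in the 8 groups (b1 to b3, batch 1 to 3). The relatives are the muscle isoforms Cox6a2, Cox7a1 and Cox8b, and Ndufa4l2, for which no tissue is named here. Lines give mean and 1 SD, n = 3, and the cross marks P19 control replicate 2 of batch 1. Cox6a2 and Cox8b have their highest group means in MEFs with MyoD (11.92 and 11.40), ahead of 8.78 in P19 cells with MyoD and 7.55 in MEFs labelled NeuroD2, and Ndufa4l2 has its highest in MEFs labelled NeuroD2 (10.25).

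The sequences around the start sites of 2 isoform pairs and of Ndufs3 are shown because the pairs set the genes of the largest and of moderate rises side by side. They are the RefSeq windows of 250 bases before to 50 after the start (GRCm38.p6), 5′ to 3′ on the gene's strand, with matches to the E-box CANNTG and to the ETS motif CCGGAAG, on either strand, in capitals. Cox8b lies at chr7:140900397-140900696, minus strand, Cox8a at chr19:7217567-7217866, minus strand, Cox7a1 at chr7:30183921-30184220, plus strand, Cox7a2 at chr9:79759804-79760103, minus strand and Ndufs3 at chr2:90904672-90904971, minus strand.
Cox8b: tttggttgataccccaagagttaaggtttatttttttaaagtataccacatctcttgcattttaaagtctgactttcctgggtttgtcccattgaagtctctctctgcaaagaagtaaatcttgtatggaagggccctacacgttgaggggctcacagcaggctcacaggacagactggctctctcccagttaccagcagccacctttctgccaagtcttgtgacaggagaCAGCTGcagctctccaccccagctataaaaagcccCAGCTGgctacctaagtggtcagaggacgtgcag
Cox8a: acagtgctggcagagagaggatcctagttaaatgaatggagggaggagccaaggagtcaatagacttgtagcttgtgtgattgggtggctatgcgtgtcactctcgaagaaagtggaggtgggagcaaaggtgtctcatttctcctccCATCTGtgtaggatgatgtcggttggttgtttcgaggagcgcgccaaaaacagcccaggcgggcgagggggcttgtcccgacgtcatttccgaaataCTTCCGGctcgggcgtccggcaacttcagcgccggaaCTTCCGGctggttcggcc
Cox7a1: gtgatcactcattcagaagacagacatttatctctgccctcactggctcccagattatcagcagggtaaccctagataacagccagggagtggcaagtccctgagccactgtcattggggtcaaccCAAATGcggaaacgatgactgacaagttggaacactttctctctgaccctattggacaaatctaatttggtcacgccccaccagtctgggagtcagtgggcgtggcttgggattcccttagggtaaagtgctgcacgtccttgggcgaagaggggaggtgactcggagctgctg
Cox7a2: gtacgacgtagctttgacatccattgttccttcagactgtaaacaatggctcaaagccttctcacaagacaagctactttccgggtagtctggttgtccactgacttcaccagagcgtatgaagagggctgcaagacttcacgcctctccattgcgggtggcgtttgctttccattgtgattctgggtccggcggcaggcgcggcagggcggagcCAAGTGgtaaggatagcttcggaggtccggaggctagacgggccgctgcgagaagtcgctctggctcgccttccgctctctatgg
Ndufs3: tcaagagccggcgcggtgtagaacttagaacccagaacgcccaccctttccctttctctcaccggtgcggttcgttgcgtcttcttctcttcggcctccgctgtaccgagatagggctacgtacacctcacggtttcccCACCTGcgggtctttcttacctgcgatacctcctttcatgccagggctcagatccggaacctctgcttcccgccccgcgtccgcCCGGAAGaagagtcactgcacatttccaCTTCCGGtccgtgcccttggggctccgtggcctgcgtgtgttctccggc

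E-boxes are the sites of the family to which MyoD and NeuroD2 belong. The Cox8b window held 2 E-boxes, both CAGCTG, and no ETS match. The Cox8a window held 1 E-box and 2 ETS matches, while Cox7a1 and Cox7a2 held 1 E-box and no ETS match each, and Ndufs3 1 E-box and 2 ETS matches. Such matches are common. Of 72 windows that belonged to 67 of the 83 genes, 66.7% held CANNTG, against 72.3% of 32851 windows of all genes, and 8.33% held CAGCTG, against 16.3%. CAGGTG was in 20.8% against 20.2%, and CAGATG in 12.5% against 17.2%; all of these fall within the E-box. The ETS motif CCGGAAG was in 23.6% against 8.86%, the NRF1 motif in 5.56% against 0.971%, TCAAGGTCA, bound by estrogen-related receptors, in 2.78% against 0.423%, and the MEF2 motif in 0 of 72 against 3.19%. These are matches of letters in short windows, given as a description; the arrays measured no binding.

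Complex V rose nearly throughout: 16 of 17 genes, with a median of 0.55. The 5 genes of its catalytic head and central stalk (Atp5a1, Atp5b, Atp5c1, Atp5d and Atp5e) rose by 0.48 to 0.59, a narrow range. The 3 genes for the c subunit, which forms the rotating ring, encode the same mature protein with different import signals, and they differed more: Atp5g1 by 0.88, Atp5g3 by 0.58 and Atp5g2 by 0.21, the only gene of the complex that did not pass. It passed without the divergent array, which brought the count to 17 of 17.

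The genes that surround the complexes in the same pathway were described from lists, against the same background of 10.8% higher and 14.5% lower, or 18.1% and 22.5% without the divergent array. Of 13 tricarboxylic acid cycle genes measured, 9 rose and 0 fell (median 0.79; 13 and 0 without the array), with Idh2 and Idh3a, both isocitrate dehydrogenase genes, at 1.00 and 0.98. Of 12 genes for pyruvate entry, 6 rose and 1 fell (median 0.55; 8 and 3 without the array). Pdhx and Pdhb of the pyruvate dehydrogenase complex rose by 1.08 and 1.00, and Pdp2, a phosphatase that activates it, fell by 0.48. Of 17 fatty acid oxidation genes, 3 rose and 3 fell (6 and 5 without the array), and the share that fell was near that of all genes. Hadhb and Hadha of the trifunctional protein rose by 0.70 and 0.59, and the carnitine palmitoyltransferases Cpt1c and Cpt1a fell by 2.04 and 1.56. Of 17 import, porin and chaperone genes, 7 rose and 0 fell (12 and 0 without the array), including the import pores Timm23 (0.87) and Tomm40 (0.73). Of 8 nucleotide carriers and uncoupling proteins, 1 rose and 2 fell (2 and 2 without the array): the ADP/ATP carrier Slc25a5 rose by 0.65, and Slc25a27 and Slc25a14 fell by 1.38 and 0.70. Of 5 genes for creatine and oxygen handling of muscle, 3 rose and 0 fell (3 and 0 without the array). These were muscle creatine kinase Ckm, myoglobin Mb and brain creatine kinase Ckb, by 5.70, 4.91 and 3.03.

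Of 44 assembly factors measured, 10 rose and 3 fell, with a median of 0.14, against 10.8% and 14.5% of all genes. Without the divergent array 17 rose and 6 fell. Sco1 and Cox17, which deliver copper to complex IV, rose by 1.47 and 1.13, while Sco2, another copper chaperone, and Tmem126b, an assembly factor of complex I, fell by 0.59 and 0.56. Among the regulators, Ppargc1b, a coactivator of mitochondrial genes, read 6.85, 7.08 and 7.05 in controls and 9.71, 9.74 and 9.68 with MyoD (2.72 ± 0.14, adjusted p = 3.87e-12). Its relative Ppargc1a was near background in every group (3.82 to 4.55) and differed by 0.14 (adjusted p = 0.62). Tfam, which packages and transcribes mitochondrial DNA, rose from 9.74, 9.70 and 9.79 to 10.48, 10.53 and 10.53 (0.77, adjusted p = 0.0073). The nuclear receptor Esrra rose by 0.38, and the factors Nrf1 and Gabpa differed by 0.29 and 0.14 without passing (adjusted p = 0.26 and 0.796). Of 27 regulators, 8 rose and 1 fell, the Gabpa partner Gabpb2, by 1.10 (12 and 3 without the array).

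**Figure D4:**
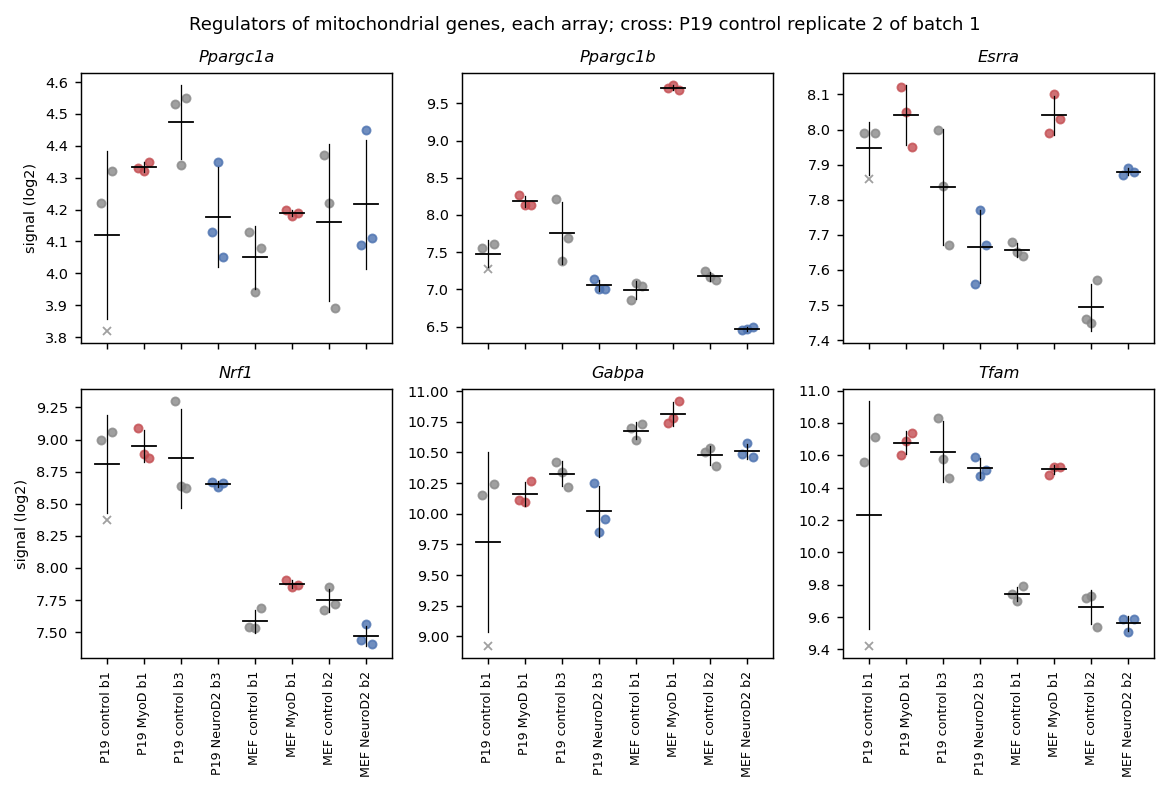
Log2 signal (vertical axes, scale set per gene) of 6 regulators of mitochondrial genes on each array in the 8 groups (b1 to b3, batch 1 to 3), with mean and 1 SD, n = 3; the cross marks P19 control replicate 2 of batch 1. Ppargc1b is highest in MEFs with MyoD (mean 9.71) and lowest in MEFs labelled NeuroD2 (6.47), and Ppargc1a stays between 3.82 and 4.55 on all arrays.

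In P19 cells, MyoD came with no call among the 83 genes (limma, 0 higher and 0 lower, against 2.71% of all genes, 2.03% higher and 0.676% lower). On all arrays, 34 of the 83 had an unadjusted limma p under 0.05. No share of all genes is given here for that threshold, so 34 cannot be set against 2.71%. The median difference was 0.24, but it rested on the divergent array. Without that array it was 0.04, and 1 gene, Cox6a2, rose (against 2.09% of all genes higher and 1.85% lower). With P19 control replicate 1 or 3 left out in its place, 38 or 39 genes were called higher and 1 lower, against 20.7% or 26.6% of all genes higher and 13% or 16.6% lower; the divergent array was then 1 of the 2 controls left. Set against the batch 3 controls instead, 4 genes were higher and 2 lower, against 5.13% and 6.28% of all genes, shares no larger than the background, and the median was 0.02.

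The groups did not overlap for 31 of the 83 genes, against 22.7% of all genes, and for 37 without the divergent array, against 38.9%. Cyc1 read 12.47, 12.48 and 12.40 with MyoD and 12.46, 11.77 and 12.49 in controls, so the groups overlapped and only the divergent array lay apart. Cycs read 12.11, 12.17 and 12.37 against 12.07, 11.38 and 12.08, a difference of 0.37 (adjusted p = 0.138), or 0.14 (adjusted p = 0.69) without that array. Cox6a2 read 8.85, 8.87 and 8.64 with MyoD and 8.25, 9.05 and 8.10 in controls. Here the divergent array was the highest control, and the difference was 0.32 ± 0.19 (adjusted p = 0.233) with it and 0.61 (adjusted p = 0.0191) without it. Cox8b and Cox7a1 did not pass either way, at -0.44 and -0.15 with the array and 0.10 and -0.21 without. Skeletal muscle markers summed to 58.3 to 58.5 in these cells, against 43.0 to 44.0 in their controls. Of the listed pathway genes, Ppargc1b rose by 0.70 and Nrip1, a corepressor of mitochondrial genes, by 0.76 (0.60 and 0.48 without the divergent array, both called).

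The difference between the effects of MyoD in MEFs and in P19 cells was tested directly. It was positive and called for 23 of the 83 genes and negative for 0, against 6.39% and 14.7% of all genes, with a median of 0.30. Without the divergent array 56 were called higher, against 13.7% of all genes, and the median was 0.51. Leaving out replicate 1 or 3 of the P19 controls, of the MEF controls or of the P19 cells with MyoD, or replicate 2 of the MEFs with MyoD, gave 14 or 15 calls, all higher, against 5.24% to 11.1% of all genes higher. Cox8b differed by 6.34 ± 0.43, Cox6a2 by 3.06 ± 0.27 and Cox7a1 by 1.66 ± 0.21 (adjusted p = 5.51e-10, 2.78e-08 and 3.83e-06), and by 5.81, 2.77 and 1.73 without it. Cyc1 differed by 0.99, Cox8a by 0.59 and Cycs by 0.63, all called with and without the array. By complex, 6 of 9 genes of complex III, 6 of 33 of complex I and 3 of 17 of complex V were called, and 8, 20 and 13 without it. The MEFs with MyoD differed from the P19 cells with MyoD in medium and collection time as well as in cell type.

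NeuroD2 in P19 cells came with a call for 1 of the 83 genes, against 8.34% of all genes, 5.1% higher and 3.24% lower. The median was 0.05 and the range -0.27 to 0.57, and groups did not overlap for 8 genes, against 26% of all genes. In the same cells 7 neuronal markers summed to 69.1 to 74.4, against 50.3 to 52.1 in controls. The 1 gene, Ndufc1, an accessory subunit of complex I, read 11.67, 11.56 and 11.51 with NeuroD2 and 10.77, 11.55 and 10.72 in controls (0.57 ± 0.17, adjusted p = 0.048). Control replicate 2 lay within the NeuroD2 group, so the groups overlapped, and the call ended when any 1 of 20 of the 24 arrays was left out. Cyc1 differed by -0.14 and Cycs by -0.03. Without the divergent array of batch 1, 5 genes were called higher (Ndufc1, Ndufa5, Ndufa3, Ndufs5 and Cox6b1, by 0.25 to 0.57) against 10.9% of all genes.

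Around these genes, Esrrg, an estrogen-related receptor, rose by 1.29 in P19 cells with NeuroD2, and Ppargc1b fell by 0.71, from 8.21, 7.38 and 7.69 to 7.14, 7.01 and 7.01. The Ppargc1b groups did not overlap. Sco2 fell by 0.68, the fatty acid oxidation genes Eci1 and Cpt1a by 0.66 and 0.55, Suclg2 of the tricarboxylic acid cycle by 0.43, and Twnk, the mitochondrial DNA helicase, by 0.36. Slc25a27, Timm50 of the import machinery and Cox19, an assembly factor of complex IV, rose by 0.63, 0.52 and 0.42. Of the 13 tricarboxylic acid cycle genes 1 fell and 0 rose (2 and 0 without the divergent array), and of the 44 assembly factors 1 rose and 1 fell (7 and 9 without it, against 10.9% and 11.2% of all genes).

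In MEFs labelled NeuroD2, 6 of the 83 genes were called, 2 higher and 4 lower, against 6.41% and 5.94% of all genes. The median was -0.01, and groups did not overlap for 52 genes, against 43.9% of all genes. Ndufa4l2, a relative of Ndufa4 known to be induced by hypoxia, read 10.17, 10.26 and 10.33 against 6.77, 6.87 and 7.11 in controls (3.34 ± 0.31, 10.1-fold, adjusted p = 8.11e-08). It lay between 6.54 and 8.35 on all 21 other arrays. Ndufa4 itself read 12.30, 12.29 and 12.37 against 12.20, 12.23 and 12.08, a difference of 0.15 that did not pass (adjusted p = 0.668). Cox8b read 7.47, 7.42 and 7.78 against 5.55, 5.56 and 6.60 (1.65 ± 0.31, adjusted p = 0.000573); control replicate 3 was the highest control and still lay below the NeuroD2 arrays.

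The other called genes fell. Cox6a2 and Cox7a1, muscle isoforms like Cox8b, fell by 0.62 and 0.49 (adjusted p = 0.036 and 0.0292), so the 3 muscle isoforms moved in opposite directions here. Cox6a2 read 7.58, 7.36 and 7.29 against 7.99, 8.04 and 8.05, and Cox7a1, near background, 4.87, 4.74 and 4.87 against 5.32, 5.36 and 5.28. The second probe set of Cox6a2 fell by 0.50. Ndufs4, a complex I subunit needed for its stability, fell by 0.41 and Uqcrq, a small subunit of complex III, by 0.34 (adjusted p = 0.0391 and 0.0483). Leaving out any 1 array of these 2 groups left 2 or 3 calls among the 83 genes, against 9.43% to 10% of all genes. Calls for these 4 ended under several other settings: the Cox6a2 and Cox7a1 calls in 7 settings each, Ndufs4 in 16 and Uqcrq in 22 of the 32 to 34 tried. Without the divergent P19 array, 4 genes were called higher and 11 lower, against 13.8% and 13.3% of all genes.

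In those MEFs, Pdk2, a kinase that inhibits pyruvate dehydrogenase, read 9.40, 9.88 and 9.73 against 7.60, 7.69 and 6.83, and Esrra 7.87, 7.89 and 7.88 against 7.46, 7.45 and 7.57 (0.39, adjusted p = 0.00629). Ppargc1b fell by 0.70, from 7.24, 7.16 and 7.12 to 6.45, 6.46 and 6.50. All 3 genes separated the groups. Tfam, Nrf1 and Gabpa differed by -0.10, -0.27 and 0.04 without passing. Of 12 genes for pyruvate entry, 1 rose and 1 fell (4 and 3 without the divergent array). Of 17 import, porin and chaperone genes, 0 rose and 4 fell (0 and 9 without it). Among all 18193 genes, 1166 rose and 1080 fell (2506 and 2422 without it). Skeletal muscle markers summed to 36.5 to 36.9 against 35.6 to 38.0 in controls. Neuronal ones summed to 37.5 to 38.2 against 34.2 to 35.2, and 1 of 7 lay above 7.03 (Tubb3, mean 8.19 against 6.37). In MEFs with MyoD the neuronal sum was much the same, 37.1 to 38.2 against 35.3 to 35.6 in their controls. The part of these markers was not tested.

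Tested directly, the NeuroD2 effects in MEFs and P19 cells differed for 4 genes, against 10.2% of all genes, 4.53% higher and 5.63% lower. Ndufa4l2 differed by 3.26 ± 0.44 and Cox8b by 1.77 ± 0.43 (adjusted p = 1.88e-05 and 0.00881), Cox7a1 by -0.69 and Ndufa5, an accessory subunit of complex I, by -0.67 (adjusted p = 0.0355 and 0.0448). The Cox7a1 call ended in 12 of 32 settings and the Ndufa5 call in 22 of 33. Without the divergent array 2 genes were called higher and 7 lower, against 12.6% and 12.3% of all genes. This comparison was added after the data were seen. Within MEFs, the effect of MyoD exceeded that of NeuroD2 for 44 genes and was below it for 1, against 8.33% and 10.5% of all genes, with a median of 0.57. Cox8b differed by 4.26, Cox6a2 by 4.0, Cox7a1 by 2.01, Cycs by 1.25 and Cyc1 by 1.14, and Ndufa4l2 by -3.45. The batches and media differed between these effects, each taken against its own controls. Within P19 cells limma called 0 genes, against 5.53% of all genes, 2.6% higher and 2.93% lower. Without the divergent array it called 1 (Cox6a2, 0.87), against 823 higher and 1173 lower among all 18193 genes. Mean Cox6a2 signal in the P19 controls was 8.18 in batch 1 without that array and 7.62 in batch 3. With all arrays, 6 of the 83 had an unadjusted limma p under 0.05, for which no share of all genes is given here.

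Untransduced MEFs and P19 cells of batch 1 differed in many of these genes, and the balance depended on the divergent array. With it, 32 genes were higher in MEFs and 9 lower, against 51.7% of all genes, 24.8% higher and 26.9% lower, with a median of 0.18 (all genes -0.12). Without it, 27 were higher and 23 lower, against 24.1% and 31.4%, with a median of -0.00. In both fits 26 were higher and 8 lower. When the MEF controls of batch 2 were set against the P19 controls of batch 3, the counts were 15 and 21, against 20.5% and 26.8% of all genes, which is near the background. Groups did not overlap for 43 of the 83 genes, against 51.6% of all genes, and for 67 without the divergent array, against 72.4%. These control arrays also served the MyoD comparisons in both cell types, so the values are only set side by side with those.

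**Figure D5:**
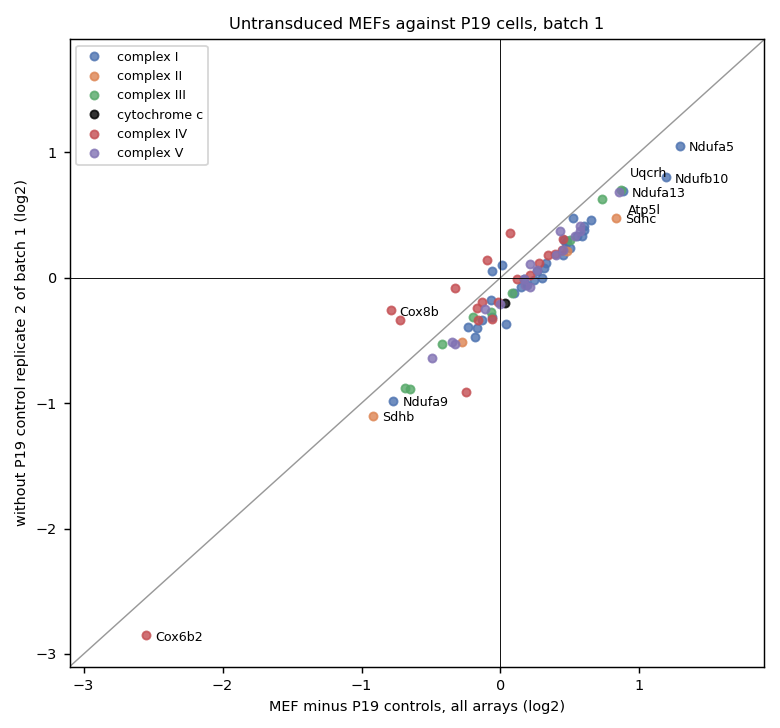
Difference between untransduced MEFs and P19 cells of batch 1 (log2) for each of the 83 genes with all arrays (horizontal axis) and without P19 control replicate 2 (vertical axis), coloured by complex; the grey line marks equal values. Most points lie below the line, and the median moves from 0.18 to -0.00, while Cox6b2 (-2.55), Sdhb (-0.92), Ndufa5 (1.29) and Ndufb10 (1.19) keep their side.

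The largest of these differences held in both fits, which share every array but the divergent one and so are not independent. Cox6b2, the testis isoform of a subunit at the contact of the complex IV dimer, read 8.08, 7.17 and 8.06 in P19 controls and 5.32, 5.05 and 5.28 in MEFs (-2.55 ± 0.37, adjusted p = 5.3e-06; -2.85 without the array). P19 controls of batch 3 read 6.75, 8.84 and 8.92, so replicate 1 there stood below the other P19 arrays of its group, though above the MEF controls of batch 1. In batch 1 all 3 P19 controls lay above all 3 MEF controls. The mean was 5.64 in the MEF controls of batch 2 and 8.17 in the P19 controls of batch 3.

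Subunits of one complex went opposite ways between the cell types. In complex II, Sdhb was lower in MEFs (11.15, 11.17 and 11.16 against 12.26, 11.71 and 12.26; -0.92 ± 0.11, adjusted p = 7.84e-07; -1.10 without the array). Sdhc and Sdha were higher, by 0.83 and 0.48 (0.48 and 0.21 without the array, all called). Sdhc read 11.53, 11.47 and 11.37 against 10.93, 9.95 and 11.01, and Sdha 11.63, 11.67 and 11.63 against 11.42, 10.63 and 11.45. Sdhd read 10.87, 10.91 and 10.93 in MEFs against 11.44, 10.72 and 11.40. It was not called with the divergent array and was called lower in MEFs without it. In complex III, Cyc1 and the iron-sulfur subunit Uqcrfs1 were lower in MEFs (-0.65 and -0.69; -0.89 and -0.88 without the array), and Uqcrh, the hinge protein that helps dock cytochrome c, was higher (0.87, and 0.70 without). In complex I, Ndufa9 was lower (-0.77, and -0.98 without), and the accessory genes Ndufa5 (1.29, and 1.05 without), Ndufb10 (1.19, and 0.80 without) and Ndufa13 (0.88, and 0.69 without) were higher. Cycs differed by 0.03 (limma adjusted p = 0.878), or -0.20 without the array. Means of the MEF controls of batch 2 against the P19 controls of batch 3 kept these directions for the called genes. They lay closer than in either fit for Ndufb10 (10.79 against 10.45), Ndufa5 (10.52 against 9.90) and Ndufa13 (12.56 against 11.97). Sdhb (10.90 against 12.18) and Cyc1 (11.22 against 12.53) lay further apart. Sdhc had means of 11.67 against 11.20 and Sdha 11.54 against 11.35.

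In complex V, Atp5l, a small membrane subunit, was higher in MEFs (12.33, 12.33 and 12.26 against 11.65, 11.13 and 11.60; 0.85 ± 0.14, and 0.68 without the array). Cox8b was called lower with the divergent array (-0.79, adjusted p = 0.0363), which read 7.36 where the other controls read 5.77 and 5.73. Without it the difference was -0.26 (adjusted p = 0.329), and with the controls of the other batches 0.34. Of the called genes with other probe sets, 3 probe sets of 2 genes (Cox5b and Uqcr10) were called the opposite way, out of 42, so the direction for these 2 genes is not settled.

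The pathway lists were read between the cell types against 24.8% of all genes higher in MEFs and 26.9% lower, or 24.1% and 31.4% without the divergent array; all genes named here were called in both fits. Of 27 regulators, 5 were higher and 12 lower (4 and 17 without the array). Nrf1 was lower in MEFs (-1.23, and -1.45 without), as was Tfb1m, a methyltransferase of mitochondrial ribosomal RNA (-1.74, and -2.05 without). Of 17 import, porin and chaperone genes, 1 was higher and 5 lower (1 and 12 without the array). With the array the share lower was near the background and the share higher was below it. Timm50 and Tomm40 were lower (-1.51 and -1.32, and -1.79 and -1.48 without). Of 12 genes for pyruvate entry, 6 were higher and 2 lower (6 and 4 without). Among them Mpc1, a subunit of the pyruvate carrier of the inner membrane, was higher by 3.45 (2.86 without) and Pdk4 by 2.11 (2.15 without), and Pdhb was lower (-0.84, and -1.04 without). Of 17 fatty acid oxidation genes 11 were higher and 1 lower (10 and 4 without), with Cpt1a and Cpt1c higher by 2.83 and 2.66 (2.63 and 2.44 without). Of the isoforms of the ADP/ATP carrier, Slc25a4 was higher (1.19, and 0.98 without) and Slc25a5 lower (-0.44, and -0.65 without). Ckb was lower too (-4.30, and -4.46 without). Of 44 assembly factors, 18 were higher and 9 lower (16 and 15 without). Ndufaf6 and Cox10 were lower (-2.29 and -1.92, and -2.77 and -2.24 without), and Cox20 and Pet100 higher by 1.91 and 1.84 (1.34 and 1.52 without).

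Controls of one cell type also differed between batches, which bears on any comparison across them. P19 controls of batch 3 against batch 1 gave 16 genes higher and 1 lower, against 10.6% and 3.48% of all genes, and 8 and 7 without the divergent array, against 8.29% and 9.14%. With P19 control replicate 1 or 3 of batch 1 left out 34 or 39 were called in all, against 35.6% or 41.8% of all genes, and 9, 11 or 8 without replicate 1, 2 or 3 of batch 3, against 9.17%, 9.66% or 8.66%. Cycs differed by 0.64 (0.41 without), Ndufb10 by 0.88 (0.48), Cox7a1 by 0.72 (0.65) and Cox6a2 by -0.85 (-0.56), all called both ways. MEF controls of batch 2 against batch 1 gave 0 calls with limma, against 2.28% of all genes, 1.16% higher and 1.12% lower, with a median of -0.07. An unadjusted limma p under 0.05 was found for 8, with no share of all genes given here for that threshold. The groups did not overlap for 48 of the 83 genes, against 39.9% of all genes. Without the P19 array 1 was higher (Ndufa4, 0.39) and 12 were lower, against 6.75% and 9.58% of all genes, with Cyc1 at -0.37 and Cox6a2 at -0.51 among them.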

How the data were processed

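The values are log2 signal intensities deposited by the authors in 1 table of 45101 probe sets on 24 arrays. The submitters' processing notes name limma, while for background, normalization and summary no method is given in the sources used here. Quartiles matched on 23 arrays, and the values were used without further scaling; low signals are compressed toward background. Each of 18193 symbols with a probe set of its own (34945 probe sets) was read on the probe set with the highest mean. Groups came from sample titles. A mean per group was fitted with limma 3.58.1 in R 4.3.3 over all 24 arrays (16 residual and 3.89 prior degrees of freedom); tests were two-sided with Benjamini-Hochberg adjustment over all genes at 0.05. The script was tested on simulated data. The number of arrays limits the precision.

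Members and lists were chosen with earlier results of these data known. The text names Cyc1, Cycs, complex II, tissue isoform groups, the 5 largest called members each way per main comparison and 3 per comparison of effects, up to 2 called genes each way per pathway list, 6 regulators and the transduced genes; other names were chosen after their values were seen. Alternatives were other scalings, probe set rules, a filter on dim genes, other controls, array weights, fits of only the arrays compared, a replicate block and leaving out each array. Promoter windows came from RefSeq (GRCm38.p6).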

Additional observations from a re-analysis of the deposited data

Results flagged for a closer look

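The effect of MyoD was compared between MEFs and P19 cells with the contrast of both effects in limma, and 23 genes passed. The largest differences, MEFs minus P19 cells, were 6.34 for Cox8b, 3.06 for Cox6a2 and 1.66 for Cox7a1. The same contrast for NeuroD2 passed for 4 genes, among them Ndufa4l2 (3.26), Cox8b (1.77) and Cox7a1 (-0.69). These are listed because a test of the difference between 2 effects passed. Cox8b and Cox7a1 appear under both factors, with the same sign for Cox8b and opposite signs for Cox7a1. The Cox7a1 call under NeuroD2 ended in 12 of 32 settings.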

How the results depend on the processing

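The 58 rises with MyoD in MEFs ranged from 48 to 71 when each array was left out in turn, with 0 falls under any setting tried. Left out in the same way, the counts of called genes ranged from 0 to 40 for MyoD in P19 cells, 0 to 5 for NeuroD2 in P19 cells, 2 to 15 for NeuroD2 in MEFs, 37 to 50 for MEFs against P19 cells, 8 to 39 for the P19 batches, 0 to 13 for the MEF batches, 14 to 56 for the MyoD effect between cell types, 2 to 9 for the NeuroD2 effect between cell types, and 0 to 3 and 37 to 64 for MyoD against NeuroD2 in P19 cells and MEFs. Calls over all 18193 genes moved as well. For MyoD in MEFs they were 1662 higher and 2279 lower where 48 of the 83 rose, and 3302 and 4087 where 71 rose. For MEFs against P19 cells they were 4162 and 4073 without MEF control replicate 2 of batch 1, which left 37 calls. For MyoD against NeuroD2 in MEFs they were 2961 and 3537 without the divergent array, which gave 64 calls. Array weights gave 4 calls for MyoD and 6 for NeuroD2 in P19 cells, 28 for NeuroD2 in MEFs, 25 between MEF batches, 66 and 13 for the MyoD and NeuroD2 effects between cell types, and 2 and 74 for MyoD against NeuroD2 in P19 cells and MEFs. With these weights, all genes gave 1092 higher and 1307 lower for MyoD and 2124 and 2531 for NeuroD2 in P19 cells. They gave 3398 and 3483 for NeuroD2 in MEFs, and 2122 and 2927 between MEF batches. The effects between cell types came with 3856 and 4243 for MyoD and 3014 and 2851 for NeuroD2. MyoD against NeuroD2 came with 1693 and 1722 in P19 cells and 4010 and 4509 in MEFs. Fits of only the arrays compared gave 0 for NeuroD2 in P19 cells, 18 for NeuroD2 in MEFs, 11 for MEFs against P19 cells, 0 between P19 batches, 14 between MEF batches, 12 for the MyoD effect between cell types and 73 for MyoD against NeuroD2 in MEFs. In these fits all genes gave 788 higher and 403 lower for NeuroD2 in P19 cells and 2760 and 2535 in MEFs. For MEFs against P19 cells they gave 2658 and 2417. Between batches they gave 1 and 0 in P19 cells, and 1242 and 1912 in MEFs. The MyoD effect between cell types came with 878 and 1658, and MyoD against NeuroD2 in MEFs with 3574 and 4297. Quantile normalization of the deposited values gave 3 and 14 for NeuroD2 in P19 cells and MEFs, 7 between MEF batches and 54 for the MyoD effect between cell types. All genes then gave 1238 higher and 1083 lower, 1655 and 1700, 507 and 704, and 2128 and 2561, in that order. With arrays shifted to one median the values were 0 for NeuroD2 in P19 cells and 11 and 2 for the MyoD and NeuroD2 effects between cell types. There, all genes gave 799 and 588, 926 and 2659, and 797 and 880, in the same order. The mean of all probe sets gave 0 for NeuroD2 in P19 cells and 1 between MEF batches, which was also 1 without probe sets of shared sequence. With the mean, all genes gave 1026 higher and 697 lower for NeuroD2 in P19 cells, and 301 and 189 between MEF batches. Without probe sets of shared sequence they gave 236 and 201 between MEF batches. Controls of the other batch gave 6 calls for MyoD in P19 cells and turned the sign of Cox8b (0.34), Acads (0.21) and Mdh2 (-0.04) between MEFs and P19 cells. Whether replicate numbers pair the samples was not tested. Within batches, correlations of same-numbered arrays ran from -0.194 to 0.342, and those of differently numbered arrays from -0.337 to 0.313. In batches 2 and 3 the same-numbered ones were all positive (0.0412 to 0.17), and in batch 1 they had both signs. With the replicate number as a block, 52 genes rose with MyoD in MEFs, and the counts were 0 and 2 for NeuroD2 in P19 cells and MEFs, 8 between P19 batches, and 15 and 2 for the MyoD and NeuroD2 effects between cell types. Under this block all genes gave 1855 higher and 2514 lower for MyoD in MEFs. For NeuroD2 they gave 879 and 504 in P19 cells and 1078 and 1022 in MEFs, and between P19 batches 1501 and 432. The effects between cell types came with 1067 and 2402 for MyoD and 759 and 975 for NeuroD2. The block without the divergent array, an alternative chosen after the data were seen, gave 1 and 4 for MyoD and NeuroD2 in P19 cells, 17 for NeuroD2 in MEFs, 18 between MEF batches, 57 and 12 for the effects between cell types and 1 for MyoD against NeuroD2 in P19 cells. Counts over all genes for this alternative are not given here, so these cannot be set against a background. Except where a setting leaves out arrays or genes, the cause of these shifts was not tested. Of 132 calls for named genes, 75 held in all of their 32 to 34 settings. Signals near background limit what can be read for dim genes such as Cox7a1, Ndufb4 and Cox7b2.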
